A study of Mus musculus with 12 samples.

Results

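Skin biopsies from mice in a tick infestation study were set apart by how much hair keratin RNA they held, and the genes other than the hair keratins were compared between the ends of that range. Of the 12 libraries in the series, 4 form the hair-keratin-high side, 5 form the hair-keratin-low side, and 3 intermediate libraries were left out. The sides were chosen by measured values of these same libraries, the mean of the hair keratin genes on the log2(CPM + 1) scale, where CPM is the read count of a gene scaled to a library total of 1 M (mega) reads. Every gene of the contrast therefore counts as used by the choice, so differences are described with their spread and no p-value is given.

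The series followed the skin of mice through repeated infestation, and RNA of each biopsy was sequenced. Bitten skin was taken 4 days after tick attachment, and the naive libraries carry the same day label. On the hair-keratin-high side stood 1 naive library (replicate 1), taken from unbitten skin, 2 first exposure libraries (replicates 1 and 2) and 1 library labelled ticks 2x (replicate 1). On the hair-keratin-low side stood 1 naive library (replicate 2), 1 first exposure library (replicate 3), 1 ticks 2x library (replicate 3), 1 ticks 3x library (replicate 3) and the 1 library labelled saliva immune, which was also bitten. The intermediate libraries were ticks 3x replicates 2 and 1 and ticks 2x replicate 2. Exposure to ticks is shared by all libraries of both sides except the naive ones. Groups are named as labelled, and the sources used here give neither the strain, sex and age of the mice, nor the tick species, the biopsy site, the hair cycle stage or whether each library came from its own animal. The spread between libraries may therefore be technical in part. No ticks 3x and no saliva immune library lies on the hair-keratin-high side, so for those groups exposure and side cannot be told apart.

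The hair follicle cycles between growth (anagen), regression (catagen) and rest (telogen). During growth, matrix cells in the follicle bulb divide next to the dermal papilla under WNT, sonic hedgehog and BMP signals, and leave the cycle to form the hair shaft, which is built of hair keratins and keratin-associated proteins, and the inner root sheath, which is built of its own keratins and trichohyalin. Melanocytes of the bulb pass pigment to the shaft while it grows, and the bulge of the upper follicle keeps stem cells through rest.

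Depth, estimated from the step of the deposited CPM values, spanned 12.5 to 29.8 M reads. It was 17.9 to 29.8 M on the hair-keratin-high side and 12.5 to 25.6 M on the hair-keratin-low side, and a level of 3 reads corresponded to 0.101 to 0.24 CPM across all 12 libraries. The naive library of the hair-keratin-low side was the shallowest. A gene was kept where 2 or more of the 9 libraries held 1 CPM or more of it. Over the 16927 kept genes, the median difference between the sides was 0.01 on the log2(CPM + 1) scale.

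The mean over 15 hair keratin genes, which set the sides, was 6.59, 8.05, 8.54 and 7.90 on the log2(CPM + 1) scale on the hair-keratin-high side and 0.39, 0.73, 0.30, 0.32 and 0.24 on the hair-keratin-low side. Throughout, values of the hair-keratin-high side are listed in the order naive replicate 1, first exposure replicates 1 and 2 and ticks 2x replicate 1. Those of the hair-keratin-low side are listed as naive replicate 2, first exposure replicate 3, ticks 2x replicate 3, ticks 3x replicate 3 and saliva immune. The libraries just outside the sides had means of 5.53 (ticks 3x replicate 2), 4.03 (ticks 3x replicate 1) and 1.52 (ticks 2x replicate 2) and lay between the lowest library of the high side (6.59) and the highest of the low side (0.73). Hair keratins, inner root sheath keratins, Tchh and keratin-associated proteins together, 77 genes, held 1.29%, 4.13%, 5.08% and 3.6% of the CPM on the high side, against 0.00253%, 0.00812%, 0.00232%, 0.00322% and 0.00206% on the low side. Of the 6 markers given for growing follicles, Krt85 was not used here. The mean of the other 5 lay between 9.45 and 11.38 on the hair-keratin-high side and between 0.61 and 2.59 on the hair-keratin-low side.

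The name follicle-rich would say more than these data show. Krt15 and Cd34, which are used as markers of bulge stem cells (Krt15 also of basal epidermis), were present on both sides. In bulk skin the cells that carried either gene were not identified, so their levels do not count bulge cells. Krt15 was at 893, 642, 497 and 906 CPM on the hair-keratin-high side and at 1410, 1568, 1360, 1453 and 1272 CPM on the hair-keratin-low side, and every library of the low side was above every library of the high side, with a difference of -0.98 ± 0.21 (SE). Cd34 was at 458, 202, 130 and 262 CPM on the high side and 455, 477, 308, 244 and 396 CPM on the low side, and the sides overlapped. Other genes were divided. In the list of resting follicle and bulge stem cell genes, 14 of 26 kept genes had a difference above 0 and 12 below. Lgr5 (2.56) and Foxc1 (1.65) were higher on the high side, and Fgf18 (-1.22) was lower. The sides are therefore called by their hair keratin level, not by a number of follicles.

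A gene was counted as higher or lower where the 4 libraries of one side did not overlap with the 5 of the other and the mean difference was at least 1 on the log2(CPM + 1) scale. Differences are high side minus low side, with the standard error (SE) over libraries, and they understate the fold change of genes near 0. Of the 16850 kept genes other than those 77, 788 were counted higher on the hair-keratin-high side, which is 4.68% of them, and 259 were counted lower, 1.54% of them. Structural genes of the shaft and sheath, melanocyte genes, matrix transcription factors and genes of the WNT and hedgehog pathways lay above that background on the higher side. So did other lists, among them BMP signalling, dermal papilla, cell cycle and polyamine and cystine metabolism. On the lower side genes of the cornified epidermis lay above it, as did the Langerhans, T cell, nerve and muscle lists with few counted genes each. The lists were chosen with earlier results of these data known, so these shares are description only. The count of lower genes depended on single libraries: it was 130 without first exposure replicate 2 and 673 without naive replicate 1. In bulk skin, fewer cells of a type and less RNA per cell cannot be told apart.

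**Figure D1:**
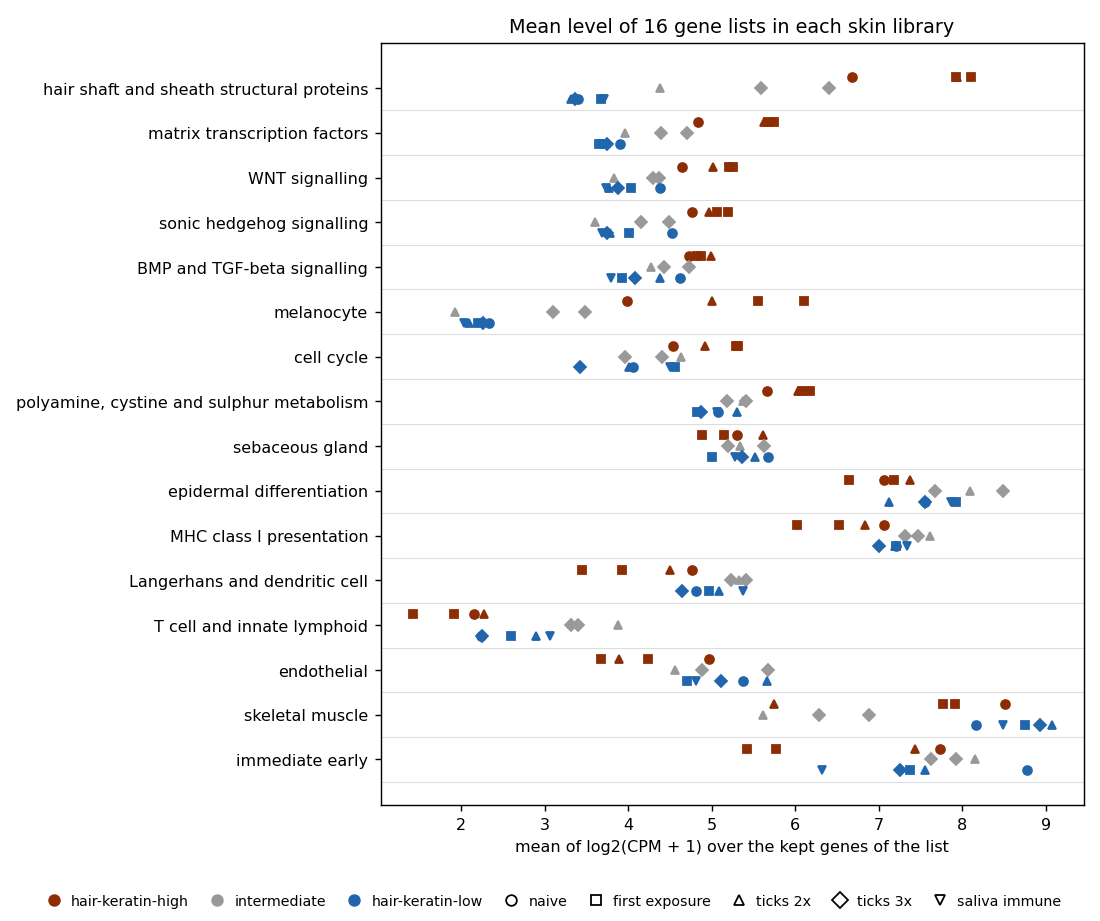
Mean level of 16 gene lists in each of the 12 libraries. The horizontal axis is the mean of log2(CPM + 1) over the kept genes of a list, colour gives the side and the marker shape the exposure group; within each row the hair-keratin-high libraries are drawn above the intermediate and hair-keratin-low ones. The hair shaft and sheath list lies between 6.68 and 8.10 on the high side and between 3.32 and 3.71 on the low side, whereas the sebaceous gland, muscle and immediate early lists overlap.

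Among structural proteins of the shaft and sheath other than keratins, 23 of 35 kept genes were counted higher and 1 was counted lower, with a median difference of 4.84. Prr9, a proline-rich protein gene, had the largest mean difference among all genes outside the 77 that the naming rule admits. It was at 613, 2161, 2345 and 2237 CPM on the hair-keratin-high side and 0.959, 1.85, 2.17, 1.3 and 1.6 CPM on the hair-keratin-low side, a difference of 9.32 ± 0.48 (SE). All 4 libraries of the high side were far above all 5 of the low side. S100a3, a cysteine-rich calcium-binding protein of the hair cuticle, was at 197, 520, 686 and 485 CPM on the high side and 0.4, 1.21, 0.124, 0.349 and 0.312 CPM on the low side, a difference of 8.23 ± 0.42 (SE). In both genes the naive library was the lowest of the high side.

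Enzymes that modify such proteins were counted in both directions. Padi3, a peptidylarginine deiminase that turns arginine of trichohyalin and S100A3 into citrulline, was at 144, 475, 533 and 427 CPM on the hair-keratin-high side and 0.16, 0.82, 0.248, 0.249 and 0.117 CPM on the hair-keratin-low side, a difference of 8.09 ± 0.45 (SE). Padi1, a related deiminase, was at 47 to 290 CPM on the high side and 0.0499 to 0.415 CPM on the low side, a difference of 7.05 ± 0.60 (SE). Of the 4 Padi genes kept, 3 were counted higher (Padi1, Padi3 and Padi4). Of 7 kept transglutaminase genes, whose products crosslink proteins, 2 were counted higher and 1 lower, with a median of 0.02. Tgm6 was at 31.9 to 193 CPM on the high side and 0 to 0.173 CPM on the low side and Tgm3 at 69.2 to 257 CPM on the high side and 10.7 to 14.9 CPM on the low side, whereas Tgm7 was counted lower, at 1.89 to 4.42 CPM on the high side and 9.91 to 16.1 CPM on the low side. The family counts for Padi and Tgm were chosen after the values were seen.

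Junction and membrane proteins of the shaft formed a further group. Gjb2, connexin 26 of gap junctions, was at 390, 1304, 1524 and 1308 CPM on the hair-keratin-high side and 5.51, 7.63, 4.53, 3.79 and 25 CPM on the hair-keratin-low side, a difference of 6.93 ± 0.63 (SE). It was the saliva immune library that was highest on the low side, still below all 4 libraries of the high side. Dsg4, the desmosomal cadherin of the hair shaft whose loss gives lanceolate hair in mice, was at 45.1, 158, 176 and 134 CPM on the high side and 0.08, 0.388, 0, 0.0499 and 0 CPM on the low side, a difference of 6.72 ± 0.46 (SE). The orphan receptor Gprc5d was at 101 to 457 CPM on the high side and 0.0499 to 0.468 CPM on the low side, the immunoglobulin-domain protein Vsig8 at 94.8 to 388 CPM on the high side and 0 to 1.52 CPM on the low side, and Fam26d at 109 to 428 CPM on the high side and 0 to 0.475 CPM on the low side. Their differences of 7.77, 7.24 and 7.94 were among the 15 largest.

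Further genes in that set were Crym, which encodes a thyroid hormone-binding crystallin, Psors1c2, and Lyg2, a goose-type lysozyme gene. Crym was at 97.9, 339, 365 and 308 CPM on the hair-keratin-high side and 0.559, 0.776, 1.18, 1.49 and 0.702 CPM on the hair-keratin-low side, a difference of 7.02 ± 0.46 (SE). Psors1c2 was at 209, 727, 991 and 671 CPM on the high side and 3.2, 6.47, 4.16, 4.48 and 4.68 CPM on the low side, a difference of 6.68 ± 0.51 (SE). Lyg2 was at 48.1, 136, 225 and 205 CPM on the high side and was listed at 0 in all 5 libraries of the low side, so no fold is given.

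Keratin-associated proteins, which crosslink hair keratins in the shaft, were part of the hair genes and are described only. All 53 kept genes were counted higher. The highest on the hair-keratin-high side was Krtap7-1, at 421, 1233, 1760 and 978 CPM there and 0, 0.345, 0, 0 and 0.0391 CPM on the hair-keratin-low side. Krtap8-1 was at 352 to 1586 CPM on the high side and 0 to 0.647 CPM on the low side, Krtap15 at 278 to 1194 CPM on the high side and 0 to 0.129 CPM on the low side, and Krtap1-5 at 187 to 841 CPM on the high side and 0 to 0.129 CPM on the low side. Some keratin-associated protein genes are close copies of each other. The sources used here do not say how reads that match several of them were counted, so the values of such members are uncertain.

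Promoters of a keratin-associated protein gene and of Prr9 and Crnn are shown because each holds the TATA box letters TATAAA shortly before the start. The windows run from 250 bases before to 50 after the start, are from RefSeq on GRCm38.p6 and read 5′ to 3′ on the strand of the gene, with TATAAA in capitals.
Krtap8-1, chr16:89487903-89488202, minus strand, TATAAA at -29: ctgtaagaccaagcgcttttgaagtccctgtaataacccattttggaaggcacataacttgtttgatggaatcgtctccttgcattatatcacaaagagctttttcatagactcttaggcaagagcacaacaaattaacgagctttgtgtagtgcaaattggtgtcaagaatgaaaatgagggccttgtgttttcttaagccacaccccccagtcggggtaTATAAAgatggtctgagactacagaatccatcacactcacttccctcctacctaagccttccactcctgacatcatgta
Prr9, chr3:92123898-92124197, minus strand, TATAAA at -30: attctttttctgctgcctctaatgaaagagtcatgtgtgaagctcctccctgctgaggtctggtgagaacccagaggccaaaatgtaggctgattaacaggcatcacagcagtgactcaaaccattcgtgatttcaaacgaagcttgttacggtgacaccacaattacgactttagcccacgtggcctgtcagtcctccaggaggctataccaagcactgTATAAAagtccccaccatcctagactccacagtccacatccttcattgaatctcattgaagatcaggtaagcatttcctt
Crnn, chr3:93144539-93144838, plus strand, TATAAA at -29: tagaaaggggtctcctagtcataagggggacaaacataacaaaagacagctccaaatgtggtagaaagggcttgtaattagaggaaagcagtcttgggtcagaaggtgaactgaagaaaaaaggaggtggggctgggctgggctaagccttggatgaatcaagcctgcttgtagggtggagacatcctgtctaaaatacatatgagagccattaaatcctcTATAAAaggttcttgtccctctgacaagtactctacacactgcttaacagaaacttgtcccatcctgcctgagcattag
Positions are counted from the start of the gene. For the shares that follow, the letters TATAAA were counted anywhere in the window on the strand of the gene, not only shortly before the start. They occurred in 39 of 48 keratin-associated protein promoters found in RefSeq (81.2%) and in 5 of 19 of the structural genes counted higher (26.3%). Over all 11994 kept genes with a promoter the share was 5.87%. It was 13.7% among the 571 genes counted higher with a promoter and 15.8% among the 196 counted lower.

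**Figure D2:**
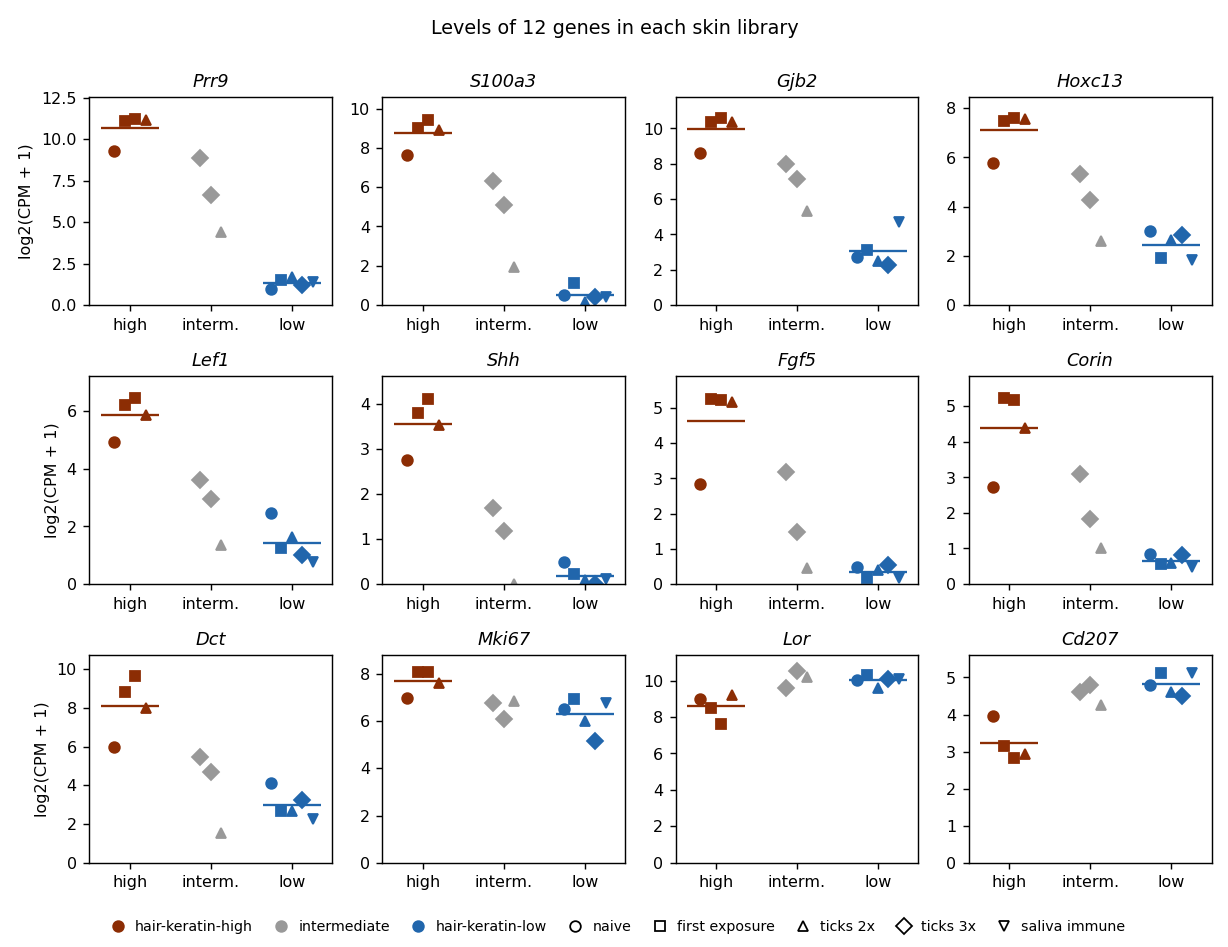
Levels of 12 genes in each library, on the log2(CPM + 1) scale. Points are libraries, with colour for the side and shape for the exposure group, and lines are the means of the 4 hair-keratin-high and 5 hair-keratin-low libraries. In the first 9 panels and in Mki67 the high side lies above the low side, with the naive library lowest among the 4, and in Lor and Cd207 it lies below.

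Genes of the epidermal differentiation complex were counted in both directions. This cluster on mouse chromosome 3 holds genes of the cornified envelope and of the S100 family, from S100a1 to S100a11 (chr3:90511034-93526288 on GRCm38.p6). Of its 56 kept genes, 11 (19.6%) were counted higher, 12 (21.4%) were counted lower and 33 were neither. Besides Tchh, which belongs to the hair genes, those counted higher were S100a3, Prr9, Crnn, Tchhl1, S100a7a, S100a16, Sprr1a, Sprr2h, Sprr4 and Gm5278. Those counted lower were Lor, Kprp, S100a4, 2310050C09Rik and 8 late cornified envelope (Lce1) genes.

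Crnn and Tchhl1 encode large S100-fused proteins like trichohyalin. Crnn was at 118, 438, 453 and 285 CPM on the hair-keratin-high side and 0.24, 0.604, 0, 0.0997 and 0.0781 CPM on the hair-keratin-low side, a difference of 7.92 ± 0.46 (SE). Tchhl1 was at 107, 439, 546 and 318 CPM on the high side and 0, 0.561, 0.248, 0.0499 and 0.507 CPM on the low side, a difference of 7.91 ± 0.54 (SE). Their neighbours Flg2, Flg and Hrnr, of the same fused type, were not counted, but their differences were negative, at -1.48, -0.69 and -1.35. In Flg2 and Hrnr the sides overlapped. Sprr1a, a small proline-rich envelope protein, was at 235, 748, 880 and 835 CPM on the high side and 44.9, 38.4, 49.3, 30.5 and 59.6 CPM on the low side, a difference of 3.76 ± 0.48 (SE).

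Loricrin (Lor), the main protein of the epidermal cornified envelope, was at 513, 358, 198 and 581 CPM on the hair-keratin-high side and 1028, 1264, 767, 1065 and 1068 CPM on the hair-keratin-low side, a difference of -1.42 ± 0.37 (SE). The highest library of the high side, ticks 2x replicate 1, and the lowest of the low side, ticks 2x replicate 3, stood closest. Lce1m was at 126, 67.8, 35 and 113 CPM on the high side and 193, 232, 170, 234 and 200 CPM on the low side, a difference of -1.41 ± 0.42 (SE). Of 16 kept Lce genes, none was counted higher and 8 were counted lower, with a median difference of -1.05. Of 9 kept Sprr genes, 3 were counted higher and none lower. These family counts were chosen after the values were seen, and both families hold close copies, so single members are uncertain.

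**Figure D3:**
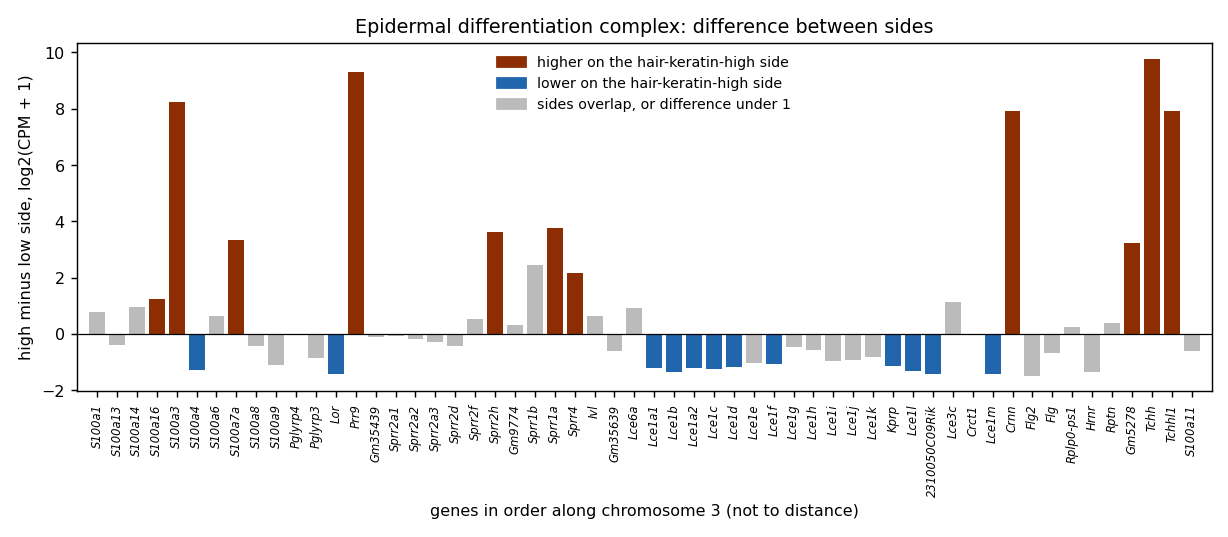
Difference of each kept gene of the epidermal differentiation complex between the hair-keratin-high and hair-keratin-low sides, on the log2(CPM + 1) scale, with genes in their order along chromosome 3. Brown bars are the 11 genes counted higher, blue bars the 12 counted lower and grey bars the 33 that overlapped or differed by less than 1. Blue bars fall mostly among the Lce1 genes, and the tallest brown bars are Prr9, S100a3 and the run of Crnn, Tchh and Tchhl1.

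The wider list of epidermal differentiation genes had 15 of 35 kept genes counted lower and 2 counted higher, with a median difference of -0.98. Its list mean overlapped, at 6.65 to 7.37 on the hair-keratin-high side and 7.12 to 7.93 on the hair-keratin-low side. Krt77, a keratin of suprabasal epidermis, was at 1843, 1017, 644 and 1266 CPM on the high side and 3011, 4262, 1915, 2776 and 3386 CPM on the low side, a difference of -1.42 ± 0.37 (SE). The suprabasal keratins Krt1 and Krt10 and the secreted proteins Dmkn, Sbsn and Krtdap were also counted lower. Krt2, another suprabasal keratin chosen after its values were seen, was counted higher, at 1.58, 13.5, 2.34 and 1.13 CPM on the high side and 1.04, 0.776, 0.373, 1.1 and 1.05 CPM on the low side, a difference of 1.13 ± 0.64 (SE), with first exposure replicate 1 far above the other libraries. First exposure replicate 2 had the lowest mean of this list among the 12 libraries.

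Keratins of the outer follicle layers differed less than those of the shaft. Of 8 kept keratins of the companion layer and outer root sheath, 3 were counted higher and none lower, with a median of 0.74. Krt75, the keratin of the companion layer, was at 219, 734, 900 and 850 CPM on the hair-keratin-high side and 46.4, 12.7, 26.3, 21.4 and 10.7 CPM on the hair-keratin-low side, a difference of 4.78 ± 0.60 (SE). Krt17 was at 567 to 1582 CPM on the high side and 297 to 448 CPM on the low side, and Krt6a, which wounded epidermis also makes, at 125 to 515 CPM on the high side and 37.9 to 111 CPM on the low side. In the naive group these 2 genes differed between the sides by only 0.34 and 0.22.

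Of 21 kept transcription factors of the hair matrix and its lineages, 11 were counted higher and none lower, with a median of 1.54. Hoxc13, which controls hair keratin genes, was at 53.3, 178, 193 and 186 CPM on the hair-keratin-high side and 7.03, 2.76, 5.21, 6.23 and 2.57 CPM on the hair-keratin-low side, a difference of 4.65 ± 0.51 (SE). It was the only 1 of 6 kept Hoxc genes counted higher, a family chosen after the values were seen. Msx2, a homeobox factor of the matrix, was at 40.4, 122, 141 and 98.5 CPM on the high side and 2.72, 4.1, 1.86, 2.59 and 2.34 CPM on the low side, a difference of 4.66 ± 0.42 (SE).

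Dlx3, a homeobox factor needed for shaft and sheath formation, was at 150, 412, 464 and 356 CPM on the hair-keratin-high side and 25.2, 31.8, 23.2, 32.7 and 29.2 CPM on the hair-keratin-low side, a difference of 3.45 ± 0.38 (SE). Foxn1, the factor missing in nude mice, was at 3.49, 8.32, 12.6 and 6.93 CPM on the high side and 1.04, 1.34, 0.435, 0.747 and 1.4 CPM on the low side, a difference of 2.07 ± 0.36 (SE). In all 4 factors the naive library was the lowest of the high side, and none of the sides overlapped.

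Among ligands, receptors, targets and inhibitors of WNT signalling, 14 of 32 kept genes were counted higher and 1 was counted lower, with a median of 1.03. Lef1, the transcription factor through which WNT signals act in the matrix, was at 29.4, 73.7, 87.2 and 56.9 CPM on the hair-keratin-high side and 4.47, 1.38, 2.11, 0.996 and 0.702 CPM on the hair-keratin-low side, a difference of 4.45 ± 0.45 (SE). The ligand Wnt11 was at 17.8, 45.4, 49.9 and 46.4 CPM on the high side and 4.63, 5.65, 9.06, 5.03 and 3.24 CPM on the low side, a difference of 2.60 ± 0.40 (SE). Some inhibitors were counted higher too. Wif1, which binds WNT ligands outside the cell, was at 19.9, 46.5, 43.9 and 35.5 CPM on the high side and 10.2, 2.16, 5.15, 4.38 and 2.65 CPM on the low side, and Nkd2, an inhibitor inside the cell, at 45.7 to 156 CPM on the high side and 9.76 to 21 CPM on the low side, with differences of 2.75 ± 0.42 (SE) and 2.58 ± 0.42 (SE). Wnt7b was the gene of this list counted lower, at 14 to 42.8 CPM on the high side and 59.3 to 93.2 CPM on the low side.

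In sonic hedgehog signalling, 5 of 14 kept genes were counted higher and none lower, with a median of 1.10. The ligand Shh was at 5.74, 12.8, 16.2 and 10.6 CPM on the hair-keratin-high side and 0.4, 0.173, 0.0622, 0 and 0.0781 CPM on the hair-keratin-low side, a difference of 3.36 ± 0.30 (SE). On the low side only the naive and first exposure libraries lay above the level of 3 reads. Hhip, a hedgehog-binding inhibitor, was at 8.29 to 14.1 CPM on the high side and 1.18 to 4.95 CPM on the low side, and Gli3, a transcription factor of the pathway, at 34.5 to 61.8 CPM on the high side and 10.6 to 20.9 CPM on the low side. Ptch1, a receptor and target of the pathway, was counted higher as well.

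Of 21 kept genes of BMP and TGF-beta signalling, 5 were counted higher and none lower, with a median of 0.50. Bambi, a decoy receptor, was at 26.9, 89.3, 110 and 85 CPM on the hair-keratin-high side and 3.59, 1.73, 3.91, 2.24 and 1.79 CPM on the hair-keratin-low side, a difference of 4.30 ± 0.48 (SE). The ligand gene Bmp8a was at 7.05 to 19.3 CPM on the high side and 0.248 to 2.8 CPM on the low side. The inhibitory Smad genes Smad6 and Smad7 were at 9.67 to 29.1 and 23.7 to 69.9 CPM on the high side and 2.77 to 4.95 and 8.71 to 21.8 CPM on the low side. In Notch signalling 1 of 16 kept genes was counted, Heyl, a transcriptional target, at 25.1, 68.1, 73.8 and 55.9 CPM on the high side and 6.63, 4.27, 7.39, 4.53 and 2.34 CPM on the low side, a difference of 3.20 ± 0.42 (SE).

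Genes of the dermal papilla and sheath were counted higher in 7 of 31 and lower in 1, with a median of 0.33. The list mean did not overlap, at 3.98 to 4.14 on the hair-keratin-high side and 3.26 to 3.90 on the hair-keratin-low side. Corin, a membrane protease of the dermal papilla, was at 5.68, 36.5, 35.3 and 19.9 CPM on the high side and 0.799, 0.475, 0.497, 0.747 and 0.39 CPM on the low side, a difference of 3.73 ± 0.59 (SE). Cntfr, a receptor subunit for ciliary neurotrophic factor, was at 27.5 to 111 CPM on the high side and 4.94 to 13.9 CPM on the low side, Acan, the proteoglycan aggrecan, at 3.39 to 6.36 CPM on the high side and 0 to 0.16 CPM on the low side, and Alx4, a homeobox factor, at 8.41 to 16 CPM on the high side and 1.3 to 3.43 CPM on the low side. Acan was below the level of 3 reads in all libraries of the low side.

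The list of resting follicle and bulge genes, which also holds the hair cycle regulator Fgf5, was divided. In it 3 of 26 were counted higher and 2 lower, with a median of 0.30, and the list mean overlapped. Fgf5, whose loss in mice prolongs the growth phase and gives long hair, was at 6.21, 37.5, 36.3 and 34.8 CPM on the hair-keratin-high side and 0.4, 0.129, 0.31, 0.448 and 0.117 CPM on the hair-keratin-low side, a difference of 4.28 ± 0.60 (SE). Lgr5, a stem cell receptor for R-spondins, was at 18, 48.9, 45.7 and 43.1 CPM on the high side and 15.3, 3.54, 6.53, 4.33 and 2.42 CPM on the low side, a difference of 2.56 ± 0.51 (SE). Fgf18, a growth factor that keeps follicles at rest in mice, was counted lower, at 8.73, 3.25, 3.06 and 5.16 CPM on the high side and 15.3, 11.2, 13.2, 12.6 and 9.32 CPM on the low side, a difference of -1.22 ± 0.31 (SE). Lhx2, a homeobox factor of follicle stem cells, was at 23.7, 45, 41.3 and 63.4 CPM on the high side and 29.6, 6.21, 14.5, 12.9 and 7.1 CPM on the low side. It overlapped, as the naive library of the low side was above the naive library of the high side.

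Melanocyte genes also differed widely. Of 23 kept genes, 16 were counted higher and none lower, with a median of 3.26, and the list mean was 3.99, 5.55, 6.11 and 5.01 on the hair-keratin-high side and 2.33, 2.20, 2.09, 2.26 and 2.04 on the hair-keratin-low side. Dct, the dopachrome tautomerase of melanin synthesis, was at 62.7, 448, 787 and 255 CPM on the high side and 16.3, 5.26, 5.28, 8.57 and 3.82 CPM on the low side, a difference of 5.12 ± 0.84 (SE). The range within the high side was wide, from the naive library to first exposure replicate 2. Trpm1, a melanocyte ion channel, was at 23.4, 166, 303 and 98.6 CPM on the high side and 0.639, 1.73, 0.124, 0.598 and 0.585 CPM on the low side, a difference of 5.99 ± 0.80 (SE).

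Tyr, tyrosinase, the first enzyme of melanin synthesis, was at 20.9, 93.5, 156 and 55.4 CPM on the hair-keratin-high side and 2.6, 5.18, 4.76, 3.56 and 6.42 CPM on the hair-keratin-low side, a difference of 3.61 ± 0.63 (SE). Tyrp1, which acts later in the pathway, was at 44.4, 350, 608 and 196 CPM on the high side and 5.51, 2.5, 3.17, 3.79 and 1.37 CPM on the low side, a difference of 5.69 ± 0.84 (SE). Pmel, the fibril protein of the melanosome, was at 32.6 to 449 CPM on the high side and 2.22 to 5.27 CPM on the low side. In each of the 5 genes the high side had the same order, with first exposure replicate 2 highest, then first exposure replicate 1, ticks 2x and the naive library.

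Promoters of melanocyte genes are shown because the E-box CATGTG, the letters bound by the melanocyte factor MITF, lies close to the start in both. They are from RefSeq on GRCm38.p6, 5′ to 3′ on the strand of the gene, with CATGTG in capitals.
Tyr, chr7:87493463-87493762, minus strand, CATGTG at -21: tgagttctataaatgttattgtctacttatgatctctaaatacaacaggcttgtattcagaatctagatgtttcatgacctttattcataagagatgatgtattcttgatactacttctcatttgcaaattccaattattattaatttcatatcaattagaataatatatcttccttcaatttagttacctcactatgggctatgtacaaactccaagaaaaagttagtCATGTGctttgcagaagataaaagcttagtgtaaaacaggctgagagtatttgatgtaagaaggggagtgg
Tyrp1, chr4:80833963-80834262, plus strand, CATGTG at -46: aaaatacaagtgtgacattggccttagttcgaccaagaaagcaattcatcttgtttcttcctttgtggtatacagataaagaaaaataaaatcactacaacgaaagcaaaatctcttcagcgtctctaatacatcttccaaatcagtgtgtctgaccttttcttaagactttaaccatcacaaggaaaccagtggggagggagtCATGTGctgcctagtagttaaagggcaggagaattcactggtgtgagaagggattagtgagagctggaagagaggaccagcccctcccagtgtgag
Searched on both strands over the same windows, CATGTG occurred in 7 of the 11 melanocyte genes counted higher with a promoter in RefSeq (63.6%) and in 9.43% of the 11994 promoters of all kept genes. The share was 11.7% among all genes counted higher and 12.8% among those counted lower, but 37.5% among keratin-associated protein promoters, 18 of 48. A match is only a match of letters.

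All 34 kept cell cycle genes had a positive difference with CPM as deposited, with a median of 0.87, and 7 were counted higher. Mki67, which marks proliferation, was at 124, 269, 266 and 193 CPM on the hair-keratin-high side and 91.1, 122, 63, 34.9 and 109 CPM on the hair-keratin-low side, a difference of 1.39 ± 0.41 (SE). The naive library of the high side and first exposure replicate 3 of the low side differed by little. Mcm5, of the replication helicase, was at 24.6 to 47.8 CPM on the high side and 6.28 to 23 CPM on the low side, the mitotic kinase gene Bub1 at 8.8 to 21.8 CPM on the high side and 2.39 to 8.37 CPM on the low side, and the mitotic motor gene Kif11 at 25.9 to 48.7 CPM on the high side and 8.57 to 20.8 CPM on the low side. The list mean overlapped, at 4.54 to 5.32 on the high side and 3.43 to 4.56 on the low side.

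Of 21 kept genes of polyamine, cystine and sulphur metabolism, 7 were counted higher and none lower, with a median of 0.52. Ggt1, a gamma-glutamyltransferase that splits glutathione outside the cell, was at 15.2, 52.2, 64.8 and 42.8 CPM on the hair-keratin-high side and 0.16, 0.129, 0.186, 0.548 and 0.195 CPM on the hair-keratin-low side, a difference of 5.01 ± 0.46 (SE). The amino acid transporter Slc7a8 was at 119, 402, 439 and 387 CPM on the high side and 13, 30, 77.8, 19.6 and 51.9 CPM on the low side, a difference of 3.20 ± 0.63 (SE). Slc7a11, which takes up cystine, was at 10.2 to 31.3 CPM on the high side and 0.498 to 9.99 CPM on the low side, and its sides nearly met. Slc7a5, a transporter of large neutral amino acids, was at 47.4 to 156 CPM on the high side and 18.2 to 35.3 CPM on the low side. The glutathione synthesis genes Gclc and Gclm and the cysteine synthesis gene Cth were counted higher as well.

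Sebaceous gland genes were mixed, with 3 of 26 counted higher, 2 counted lower and a median of -0.51. Fads2, a fatty acid desaturase, was at 29.7 to 70.2 CPM on the hair-keratin-high side and 4.23 to 11 CPM on the hair-keratin-low side, the secreted amino acid hydrolase gene Pm20d1 at 16 to 38.4 CPM on the high side and 4.29 to 10.1 CPM on the low side, and the melanocortin receptor gene Mc5r at 22.4 to 53.2 CPM on the high side and 7.16 to 17.7 CPM on the low side. Plin5, a lipid droplet protein, was counted lower, at 1.62 to 3.69 CPM on the high side and 4.55 to 9.68 CPM on the low side. The list means overlapped.

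The largest negative difference among the named genes was that of Myl2, a regulatory light chain of slow muscle myosin, at 0.571, 1.26, 0.501 and 2.65 CPM on the hair-keratin-high side and 7.83, 19.7, 17.1, 3.19 and 31.9 CPM on the hair-keratin-low side, a difference of -2.69 ± 0.60 (SE). Of the 28 kept skeletal muscle genes, none was counted higher and 2 were counted lower, and all 28 differences were below 0 with CPM as deposited, with a median of -0.97. Those counted were Myh2 and Myh1, myosin heavy chains of fast fibres. Myh2 was at 344, 290, 318 and 57.2 CPM on the high side and 353, 580, 1308, 618 and 709 CPM on the low side, a difference of -1.65 ± 0.68 (SE). Its sides all but met between the naive libraries, and ticks 2x replicate 1 was far below the rest of the high side. Myh1 is closely similar in sequence to Myh2, so its value of -1.55 ± 0.65 (SE) is uncertain. The mean of the muscle list, on the log2(CPM + 1) scale, also rested much on ticks 2x replicate 1. It was 5.75 there and 7.77 to 8.51 in the rest of the high side. Within the naive pair it was higher on the high side, 8.51 against 8.17. In the intermediate libraries it was 6.88, 6.29 and 5.62, below every library of the low side.

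Nerve and synapse genes were among the lower genes. Of 16 kept Schwann cell and nerve genes, 2 were counted lower and none higher, with a median of -0.62. Kcna1, a potassium channel of axons, was at 2.9 to 11.6 CPM on the hair-keratin-high side and 15.1 to 37.2 CPM on the hair-keratin-low side, Scn3a, a sodium channel, at 1.62 to 4.37 CPM on the high side and 5.82 to 18.8 CPM on the low side, and Ache, acetylcholinesterase, at 7.72 to 20.6 CPM on the high side and 40.1 to 55.6 CPM on the low side. The differences were -1.70, -1.58 and -1.60.

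Further genes with large negative differences included genes known from epidermis and its immune cells. Cd207, langerin of Langerhans cells, was at 14.7, 7.9, 6.07 and 6.69 CPM on the hair-keratin-high side and 26.8, 33.5, 23.3, 21.5 and 33.9 CPM on the hair-keratin-low side, a difference of -1.60 ± 0.29 (SE). Il20ra, a receptor chain for cytokines of the interleukin-20 family, was at 29.1, 26, 13.6 and 20.5 CPM on the high side and 54.1, 92.6, 61, 98.5 and 78.2 CPM on the low side, a difference of -1.76 ± 0.28 (SE). For Il20ra even the lowest library of the low side was above all 4 of the high side. Serpinb10, a protease inhibitor gene, was at 4.12 to 14 CPM on the high side and 19.9 to 40.5 CPM on the low side, Serpina3g at 1.92 to 3.88 CPM on the high side and 5.4 to 34.5 CPM on the low side, and the chloride channel regulator gene Clca2 at 34.5 to 70.3 CPM on the high side and 94.9 to 207 CPM on the low side. The bicarbonate transporter gene Slc4a8, the cytochrome P450 gene Cyp2w1 and the pseudogene Nlrp1c-ps had differences of -1.61, -1.61 and -1.97, the pseudogene with uncertain counts since it resembles other Nlrp1 genes. Of 8 kept Skint genes, which are expressed in epidermis and shape its resident gamma-delta T cells, 3 were counted lower and none higher, a family chosen after the values were seen.

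Immune lists leaned below 0 without many counted genes. In the Langerhans and dendritic cell list 2 of 15 kept genes were counted lower (Cd207 and Itgax), in the T cell and innate lymphoid list 2 of 18 (Cd3g and Ctla4), in MHC class I presentation 1 of 13 (Nlrc5, its transcriptional activator), in basophils and eosinophils 1 of 9 (Il6ra), and in cytokines and chemokines 1 of 24 (Il1f9). Medians were -0.92, -0.64, -0.81, -0.74 and -0.98, and the list means overlapped between the sides. Within the naive pair the basophil and eosinophil mean was higher on the high side, 2.65 against 2.35 on the log2(CPM + 1) scale. The means of the other lists named here were lower in naive replicate 1. Saliva immune, on the low side, had the highest basophil and eosinophil mean of all libraries, 3.94. Taken as the mean of the differences inside exposure groups, Itgax (-0.92) and Il6ra (-0.98) no longer counted. Nlrc5 was at 59, 53.2, 28.4 and 37.3 CPM on the hair-keratin-high side and 118, 141, 86.2, 112 and 142 CPM on the hair-keratin-low side, a difference of -1.44 ± 0.27 (SE). In the mast cell list, of 16 kept genes, Kit was counted higher and Mrgprb2 lower. Kit, a receptor that melanocytes also carry, was at 41.6, 51, 58.6 and 45.5 CPM on the high side and 14.6, 16, 24, 18.4 and 13.1 CPM on the low side. Mrgprb2, a receptor of connective tissue mast cells, was at 3.4 to 7.69 CPM on the high side and 14.5 to 18.6 CPM on the low side.

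No gene was counted in 8 further lists. They were adipocytes (26 kept genes, median -0.51), fibroblasts (29, -0.22), endothelium (17, -0.99), macrophages (20, -0.59), neutrophils (11, -0.76), interferon response (26, -0.24), immediate early genes (26, -0.74) and mammary and other glands (12, 0.79). The endothelial Pecam1 was at 27.1 to 85.6 CPM on the hair-keratin-high side and 67.1 to 154 CPM on the hair-keratin-low side, and the collagen gene Col3a1 at 1891 to 4650 CPM on the high side and 1593 to 7139 CPM on the low side. The lymphatic list had Reln counted lower among 8 kept genes, with a median of -0.75. In the clock list, of 18 kept genes, Bhlhe41, a repressor of the clock, was counted higher at 21.5 to 36.4 CPM on the high side and 7.21 to 16.9 CPM on the low side, and Nr1d1, another repressor, lower at 39.3 to 68.2 CPM on the high side and 70.8 to 131 CPM on the low side. The difference of Nr1d1 was -0.90 as a mean inside exposure groups, where it no longer counted. In the erythrocyte list, of 7 kept genes, Slc4a1, the anion exchanger of red cells, was counted higher at 4.7, 16.4, 15.5 and 25.1 CPM on the high side and 0.24, 0.475, 0.248, 1.3 and 0.39 CPM on the low side. The haemoglobin gene Hba-a1, chosen after its values were seen, was at 11.4 to 109 CPM on the high side and 101 to 284 CPM on the low side and overlapped.

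The list means of muscle, endothelium and immediate early genes overlapped between the sides but were lower on average on the high side. The muscle list mean was 5.75 to 8.51 on the hair-keratin-high side and 8.17 to 9.07 on the hair-keratin-low side, the endothelial mean 3.67 to 4.97 on the high side and 4.71 to 5.66 on the low side, and the immediate early mean 5.42 to 7.74 on the high side and 6.32 to 8.78 on the low side. Their part in the lower genes was not tested. Fos, an immediate early gene, was at 1518, 76, 23.4 and 1222 CPM on the high side and 3383, 1055, 782, 995 and 219 CPM on the low side, so it overlapped, with the first exposure libraries of the high side lowest.

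Since exposure groups are not spread evenly over the sides, the differences were also taken inside each exposure group that has libraries on both. The direction inside a group is fixed by the choice of genes that do not overlap, so only sizes are given. For the 788 genes counted higher the median difference was 0.82 in the naive group (1 library on each side), 1.98 in first exposure (2 and 1) and 1.84 in ticks 2x (1 and 1). In all 3 groups 301 of them (38.2%) differed by at least 1. For the 259 genes counted lower the medians were -0.67, -1.68 and -0.88, and 17 (6.56%) differed by at least 1 in all 3. Counting instead on the mean of the differences inside these groups gave 747 higher genes, which hold 677 of the 788, and 334 lower genes, which hold 163 of the 259. Sample titles carry a series number, 4 or 6, whose meaning is not given. Inside series 4 (2 and 2 libraries) the medians were 2.00 and -1.66, and inside series 6 (2 and 3) they were 1.33 and -0.79.

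**Figure D4:**
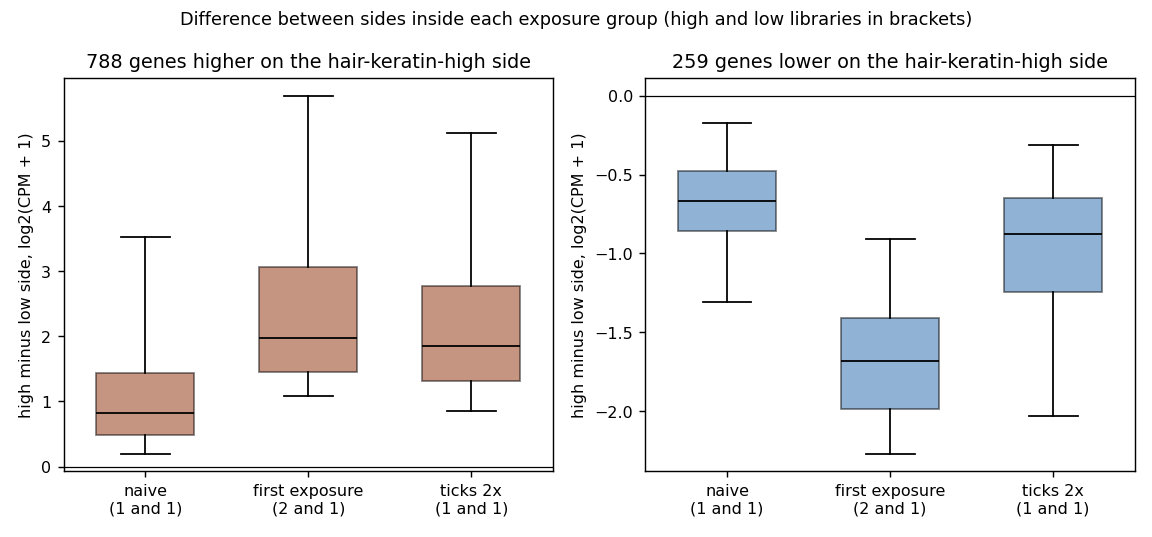
Difference between the hair-keratin-high and hair-keratin-low sides inside each exposure group, on the log2(CPM + 1) scale, for the 788 genes counted higher (left) and the 259 counted lower (right). Boxes span the quartiles with the median line and whiskers reach the percentiles 5 and 95 over genes, which are not replicates. The naive pair has the smallest medians, 0.82 and -0.67.

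The naive pair stood apart in the list means of its signalling genes. Inner root sheath keratins differed there as in the other groups, with list means of 7.98 in naive replicate 1 and 0.24 in naive replicate 2. The WNT list mean, however, was 4.64 in naive replicate 1 and 4.38 in naive replicate 2, the hedgehog mean 4.76 in replicate 1 and 4.52 in replicate 2, the BMP and TGF-beta mean 4.73 in replicate 1 and 4.62 in replicate 2, and the bulge mean 5.43 in replicate 1 and 5.56 in replicate 2. In all of these 4 lists naive replicate 2 was the highest of the 5 hair-keratin-low libraries. Some members of the signalling lists still differed widely within the pair. Lef1, Wnt11, Shh and Bambi were far higher in naive replicate 1, at the levels given above, whereas other genes were close. Lgr5 was at 18 CPM in naive replicate 1 and at 15.3 CPM in naive replicate 2, and the other low-side libraries lay at 2.42 to 6.53 CPM. Smad7 was at 23.7 CPM in replicate 1 and 21.8 CPM in replicate 2, and Foxc1, a factor of bulge stem cells, at 37 CPM in replicate 1 and 30.9 CPM in replicate 2. Gli1, a hedgehog target chosen after its values were seen, was at 23.7 CPM in replicate 1 and 23.8 CPM in replicate 2, against 6.24 to 9.19 CPM in the other low-side libraries. With 1 library on each side, this naive difference has no replicate check, and naive replicate 2 is the shallowest library.

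The 3 intermediate libraries took no part in the comparison of the sides. Their hair keratin means fall in the order ticks 3x replicate 2, ticks 3x replicate 1 and ticks 2x replicate 2. Of the 788 genes counted higher, 510 (64.7%) had their levels in that same order, against 32.9% of all 16850 genes. Of the 259 counted lower, 66 (25.5%) had the opposite order, against 13.3% of all. On a scale where the mean of the low side is 0% and that of the high side 100%, the medians for the higher genes were 43.3%, 22.1% and 5.28% in these 3 libraries. For the lower genes they were 8.38%, -21.6% and -9.72%, so these libraries lay near or beyond the low side. Prr9 was at 466, 97.5 and 20.3 CPM in the 3 libraries in that order, Dct at 43.5, 24.6 and 1.95 CPM and Hoxc13 at 38.5, 18 and 5.12 CPM. Lor was at 765, 1458 and 1184 CPM, with no such order.

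**Figure D5:**
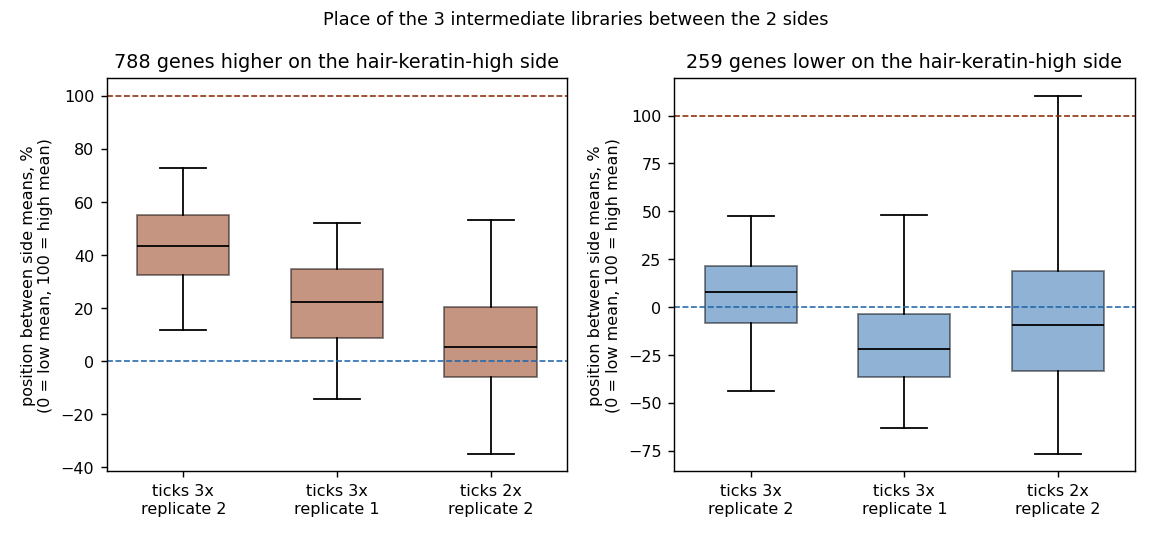
Place of the 3 intermediate libraries between the mean of the hair-keratin-low side (0%) and that of the hair-keratin-high side (100%), for the 788 genes counted higher (left) and the 259 counted lower (right). Boxes span the quartiles over genes with the median line, and whiskers reach the percentiles 5 and 95. Medians descend from 43.3% to 5.28% on the left and stay near or below 8.38% on the right.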

How the data were processed

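RNA of 12 mouse skin biopsies was sequenced. Per the submitters' processing notes, the authors used STAR and Partek 8.0.19 with GRCm38.p6; which program counted reads, and on which annotation, is not given in the sources used here. The deposited table holds CPM for 25070 named rows, and 0.0001 had been added to every cell, per the values of the file. This offset was subtracted only for the depth estimate, and levels at or below it are given as 0. Of the rows, 4 with a repeated name were left out, and 25 names had turned into dates. No count table was used, so depth was estimated from the CPM worth 1 read, of which low values were whole multiples within 0.02 reads in 73.4% to 79.4% of cases. Floors cover counting error only, and the SE is taken from the spread between libraries.

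From the deposited CPM, log2(CPM + 1) was computed with a pseudocount of 1, and a gene was kept where 2 or more of the 9 libraries reached 1 CPM. Counted genes had sides that did not overlap and a mean difference of at least 1. No test was run, because the sides were chosen on these data. The members and the 36 gene lists were chosen with earlier results of these data known. Named genes were the 15 largest positive and 15 largest negative differences among counted genes whose higher side averaged 5 CPM or more and which had 1 sign inside the 3 exposure groups, without hair genes, predicted or clone-named genes and receptor segments; up to 4 counted members per list, or, without any, the 2 of highest mean CPM; the 4 highest keratin-associated proteins; and 15 chosen genes. Some genes the rule names are not reported here. Others are marked as chosen after their values were seen. The counting rule was tested on simulated data with known changes. RefSeq of GRCm38.p6 gave positions for 90.4% of symbols. Alternatives were other pseudocounts, filters, scalings and minimum differences, differences inside exposure groups or title series, and leaving out libraries. Tables were computed in Python 3.11.15 with numpy 2.4.6 and pandas 2.3.3, and figures drawn by matplotlib 3.10.9.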

Additional observations from a re-analysis of the deposited data

Results flagged for a closer look

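Single libraries that lay far from the others of their side were looked for in 153 results, on each side, by Dixon's 95% criterion for the gap of the outermost library. By chance about 1 in 20 groups is marked this way; 306 values were checked and 32 marks were made, of which 3 were for a difference between title series. All levels here are on the log2(CPM + 1) scale, and no cause was tested.

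Naive replicate 1 was the library most often marked, as the lowest of the hair-keratin-high side. It was at 9.26 for Prr9, where the other 3 libraries lay at 11.08 to 11.20, and at 5.76 for Hoxc13, where they lay at 7.49 to 7.60. Fgf5 was at 2.85 in it and at 5.16 to 5.27 in the others. It was also the lowest for Padi3 (7.18), Crym (6.63), Gjb2 (8.61), Krt75 (7.78), Wnt11 (4.23), Lgr5 (4.25), Slc7a8 (6.91), Slc7a11 (3.48) and Sprr1a (7.88). The same held for the list means of the inner root sheath keratins (7.98), the shaft and sheath proteins (6.68) and the matrix transcription factors (4.84). The marked genes thus include structural, signalling and transport genes of the growing follicle.

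In the other direction, naive replicate 1 was far above the rest of its side for Krt19 (5.77, others 1.90 to 2.41), a keratin of simple and glandular epithelium, and for Oxtr (6.36, others 2.69 to 3.13), the oxytocin receptor gene.

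First exposure replicate 3 was the highest library of the hair-keratin-low side for the inner root sheath keratin list (1.68, others 0.05 to 0.24), Padi3 (0.86), Fam26d (0.56), Dsg4 (0.47), Krtap7-1 (0.43) and Krtap1-5 (0.18). It was the lowest for Krt6a (5.28, others 6.53 to 6.81). Ticks 3x replicate 3 was the highest of that side for Ggt1 (0.63) and Slc4a1 (1.20). On the hair-keratin-high side, ticks 2x replicate 1 was the lowest for Myh2 (5.86, others 8.18 to 8.43), and first exposure replicate 2 for Serpina3g (1.55) and Cd3g (0.88).

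For 3 results the sides differed in opposite directions in the title series. The fibroblast list mean differed by -0.88 in series 4 and by 0.44 in series 6, Col3a1, a collagen gene, by -1.37 and 0.74, and Lyz2, lysozyme of myeloid cells, by -1.39 and 0.70. These differences between series were not tested.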

How the results depend on the processing

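No paired analysis was possible because the replicate numbers follow accession order only and the labels link no samples. No alternative reversed a counted difference, and the median of each gene list kept its sign under every alternative run. Of the 788 higher and 259 lower genes, the counts moved by more than 1.5 times in few settings. With no minimum difference there were 2006 higher and 897 lower genes, and with a minimum of 2 there were 287 and 1. With a pseudocount of 0.1 there were 394 lower genes. Leaving out 1 library at a time gave 705 to 1132 higher genes and 130 to 673 lower genes, with 130 without first exposure replicate 2 and 673 without naive replicate 1. Under the 3 other scalings the counts were 714 to 836 higher and 217 to 332 lower. Of the 97 counted genes that are named, 53 were still counted with a minimum of 2, 91 under quantile normalization (Smad7, Mki67, Bub1, Slc7a11, Krt77 and Myh1 were not) and 92 without first exposure replicate 2 (Reln, Il6ra, Ctla4, Itgax and Nr1d1 were not). The median of the dermal papilla list was 0.07 without first exposure replicate 3 and 0.33 with all libraries. Single genes with a low side near 0 CPM have differences that depend on the pseudocount: Prr9 was at 9.97 with 0.1. Levels under 3 reads could not be told from 0.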

Other observations

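Keratins of simple and glandular epithelium followed 1 library more than the sides. These genes were chosen after their values were seen. Krt8 was at 48.6 CPM in naive replicate 1 and at 3.57 to 5.01 CPM in the other 3 hair-keratin-high libraries, against 0 to 7.87 CPM on the hair-keratin-low side. Krt18 was at 48.5 CPM in naive replicate 1 and at 8.75 to 12.5 CPM in the other 3, against 0.37 to 13 CPM on the low side, where ticks 3x replicate 3 was the highest. The mean of the list of mammary and other glands was 4.19 in naive replicate 1 and 2.75 in ticks 3x replicate 3, the highest values of their sides on the log2(CPM + 1) scale. Oxtr was high in the naive library of each side, at 81.4 CPM in naive replicate 1 and 99.9 CPM in naive replicate 2. The remaining 7 libraries of the sides lay between 5.46 and 16.2 CPM. Whether this goes with exposure was not tested.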
